A study of Mus musculus with 6 samples.

Results

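Glycolysis, the entry of pyruvate into the mitochondrion and the pentose phosphate pathway were read through 35 genes in satellite cells, the stem cells of skeletal muscle. The genes were taken by symbol from the deposited table, and all 35 were found among its 24980 gene symbols. The cells were sorted by flow cytometry from hindlimb muscles of adult C57BL6/J mice, and RNA-seq was done on 3 libraries labelled scERα KO and 3 labelled scERα WT. The KO label names estrogen receptor α, encoded by Esr1, as the gene knocked out, and satellite cells as the place. Mice of both groups had received tamoxifen, 10 mg in total, which induced Cre. The Cre driver and the altered exon are not stated in the labels. The contrast sets cells of KO mice beside cells of WT mice.

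Glucose enters a cell through facilitated transporters and is trapped by hexokinase. The glycolytic enzymes then split it to pyruvate, which either becomes lactate or enters the mitochondrion through the pyruvate dehydrogenase complex. Kinases of the Pdk family switch that complex off by phosphorylation and phosphatases of the Pdp family switch it back on. The pentose phosphate pathway branches off after hexokinase and makes NADPH and ribose. Quiescent satellite cells are known to rely more on fat oxidation, and glycolysis rises when they are activated.

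Values were TPM, a measure of transcript abundance scaled for length, so levels of different genes can be set side by side. The listed TPM summed to between 295306 and 321771 in KO libraries and between 317924 and 334382 in WT libraries. Depth cannot be read from TPM, and the counting error of single values is thus unknown. Esr1 held 2.92, 3.69 and 3.87 TPM in KO libraries 1, 2 and 3, against 7.53, 6.96 and 6.94 TPM in WT libraries 1, 2 and 3, so each library stood on the side its label names (exact two-sided permutation p = 0.1, the smallest that 3 against 3 libraries can give). The satellite cell gene Pax7 lay between 17.90 and 32.81 TPM over all 6 libraries, so the satellite cell label holds. The 8 markers of fibro-adipogenic progenitors summed to 123, 132 and 153 TPM in KO and to 123, 111 and 213 TPM in WT, although their receptor gene Pdgfra stayed at 0.31 TPM or less. Col3a1 and Gsn held most of these sums. Dcn and Col1a1 reached at most 13.44 and 9.70 TPM, and Ly6a, Lum and Cd248 at most 2.24, 1.01 and 0.39 TPM. Nothing in the labels ties a library to a mouse of its own. The p-values therefore reflect variation among the 6 libraries, technical variation included. In bulk RNA, fewer cells of a type and less RNA per cell cannot be told apart.

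The summed level of the pathway genes, to which Gapdh contributed most, was 316 ± 4.58 TPM in KO and 317 ± 22.9 TPM in WT (SD, n = 3 each), with 321, 313 and 314 TPM in KO libraries and 300, 343 and 308 TPM in WT libraries. The KO sums lay inside the range of the WT sums, and their difference was not tested. The 20 glycolytic genes held 254 ± 5.98 TPM in KO and 253 ± 10.9 TPM in WT, the pyruvate dehydrogenase genes 25.6 ± 2.56 and 28.6 ± 6.87 TPM, and the pentose phosphate genes 9.79 ± 0.615 and 9.78 ± 1.72 TPM, in KO and in WT (SD, n = 3 each).

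**Figure D1:**
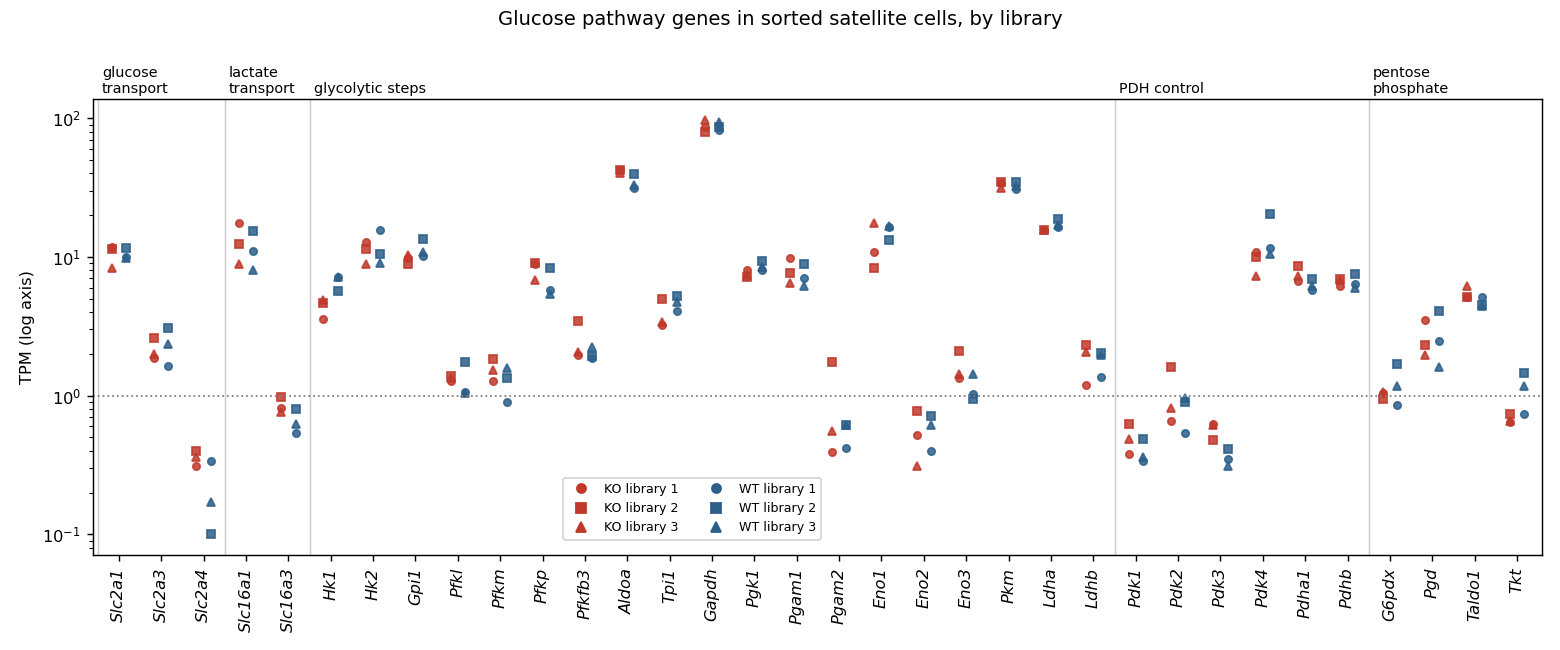
TPM of 34 pathway genes on a log axis, with the 3 KO libraries left of the 3 WT libraries for each gene and the genes grouped by role. Aldoc is not drawn because it was listed at 0 in 4 libraries; the dotted line marks 1 TPM, and Gapdh is the highest gene, between 80.05 and 97.78 TPM.

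No pathway gene passed the adjusted threshold of 0.05 by limma on log2(TPM + 1), with Benjamini-Hochberg adjustment over 8971 genes. Esr1, the gene the KO label names, did not pass either, though its mean in KO was 48.9% of that in WT. Its log2 difference was -0.86 (SE 0.13, limma adjusted p = 0.0925), so a count of 0 does not exclude differences of that size. Across all genes 0.0334% were called higher, 0.0223% lower and 0.0557% in either direction, so a count of 0 among the 26 pathway genes tested is near that background. The other 9 genes did not reach 1 TPM in 3 libraries and were not tested. Of the 26, 1 had an unadjusted p under 0.05 and was lower in KO (background 2.66% lower), and 0 were higher (background 7.89% higher). All 3 KO libraries lay above all 3 WT libraries in 1 of the 26, Aldoa, or 3.85%, against 13.5% of all genes tested, and below them in Hk1 and Ldha, or 7.69%, against 3.07%. These counts moved with single libraries: 4 genes, or 15.4%, lay wholly higher without KO library 1 (29.4% of all genes) or without WT library 2 (36.8% of all genes), and 5, or 19.2%, wholly lower without WT library 1 (5.23% of all genes). The median log2 difference of the 26 was 0.01, with 14 higher and 12 lower values in KO. Over all genes tested the median was 0.12, with 6959 higher and 2012 lower, and 8 of the 26 lay above it.

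That offset matters for the reading of these genes. Under median-of-ratios scaling, which brings the median of all genes to 0.01, the median of the 26 was -0.12 on the log2 scale. Then 7 of the 26 had every KO library below every WT library, or 26.9%, against 7.44% of all genes, and 0 had every KO library above, against 6.58%. The 7 were Hk1, Gpi1, Tpi1, Pgk1, Ldha, Pdk4 and Pdhb. At an unadjusted p under 0.05 by limma, 6 were lower (background 4.85%) and 0 higher (background 3.96%). Quantile normalization gave the same genes: 7 below (background 7.59%), 0 above (background 6.42%), 6 lower at an unadjusted p under 0.05 (background 4.86%) and 0 higher (background 4.11%). With protein-coding genes alone rescaled, the median of the 26 was 0.07 against 0.22 for all genes, 4 of the 26 had every KO library above every WT library (background 26.7%) and 1 had every KO library below (background 2.67%). There, 3 were higher at an unadjusted p under 0.05 (background 19.1%) and 2 lower (background 2.34%). The libraries of Hk1 overlapped in that setting, while its unadjusted p was 0.0222 by limma.

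**Figure D2:**
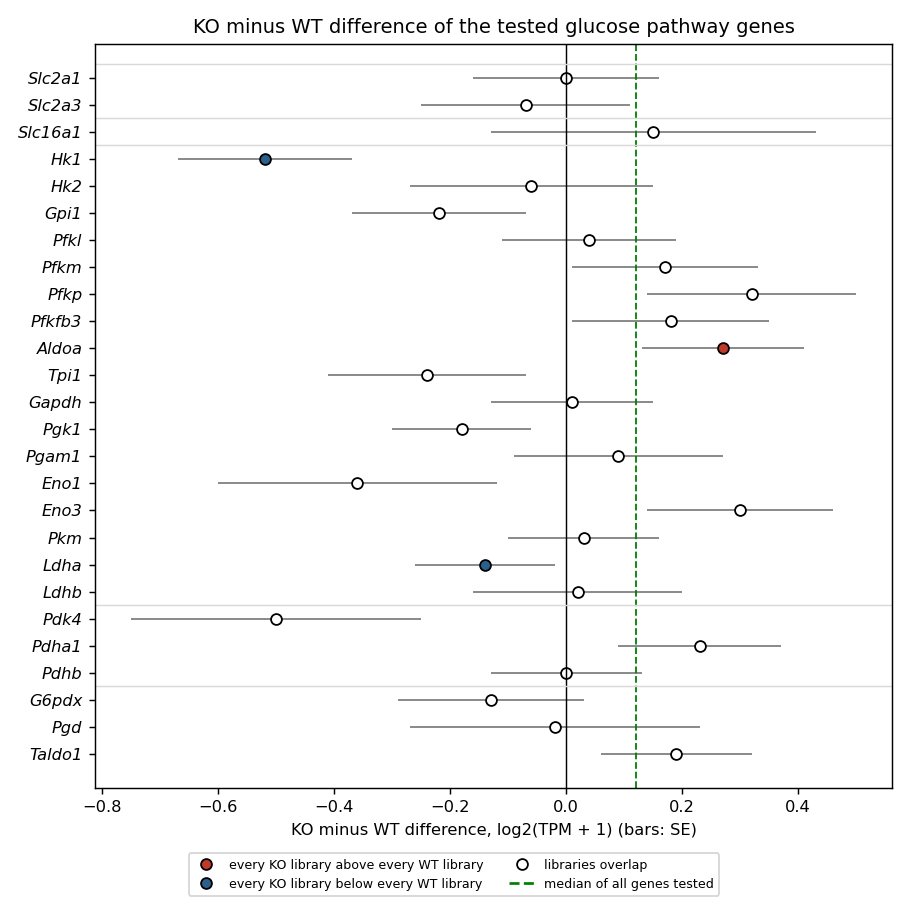
Difference between KO and WT on log2(TPM + 1) for the 26 tested genes, with bars for the SE and the dashed line at 0.12, the median of all 8971 genes tested. Hk1 stands lowest at -0.52, Pdk4 follows at -0.50, and Pfkp is highest at 0.32.

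Glucose transporters showed no separation between the groups. Slc2a1, the basal glucose transporter of most cells, held 11.81, 11.39 and 8.29 TPM in KO libraries and 9.93, 11.60 and 9.81 TPM in WT libraries. Slc2a3, a high-affinity transporter, lay between 1.87 and 2.59 TPM in KO and between 1.64 and 3.05 TPM in WT, with a log2 difference of -0.07 (SE 0.18, limma adjusted p = 0.884), a sign that turned without WT library 2. Slc2a4, the insulin-responsive transporter of muscle fibres and fat, was nearly absent, at 0.31, 0.40 and 0.36 TPM in KO and 0.34, 0.10 and 0.17 TPM in WT. Slc2a1 made up 80.5% ± 3.5 of the summed TPM of the 3 transporters in KO and 80.5% ± 2.53 in WT (SD, n = 3 each).

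Monocarboxylate transporters carry lactate and pyruvate across the plasma membrane. Slc16a1 was the main one, at 17.54, 12.34 and 8.87 TPM in KO libraries and 11.12, 15.48 and 8.03 TPM in WT libraries. The spread within each group was wider than the difference between them, which was 0.15 on the log2 scale (SE 0.28, limma adjusted p = 0.851) and turned negative without KO library 1. Slc16a3, the exporter of strongly glycolytic cells, stayed under 1 TPM in every library, between 0.76 and 0.97 TPM in KO and between 0.54 and 0.80 TPM in WT.

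Hexokinase traps glucose as glucose 6-phosphate, and the isoforms Hk1 and Hk2 both bind mitochondria. Hk1 held 3.54, 4.62 and 4.89 TPM in KO libraries, against 7.15, 5.65 and 7.15 TPM in WT libraries. Every KO library was below every WT library, and the mean in KO came to 65.4% of that in WT. By limma the log2 difference was -0.52 (SE 0.15, unadjusted p = 0.00883, adjusted p = 0.261). Leaving out any 1 library kept the unadjusted p between 0.00507 and 0.0369 and the log2 difference between -0.40 and -0.62.

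Hk2, the more abundant hexokinase transcript, did not share that pattern. It held 12.77, 11.42 and 8.86 TPM in KO libraries and 15.53, 10.49 and 9.10 TPM in WT libraries, and the groups overlapped. The Hk1 share of the summed hexokinase TPM was 21.7%, 28.8% and 35.6% in KO libraries and 31.5%, 35.0% and 44.0% in WT libraries. These shares overlapped and do not depend on library scaling; the mean difference was -8.15 percentage points (exact two-sided permutation p = 0.3, adjusted p = 0.6 over 10 isoform families). Both transcripts together summed to 16.3, 16.0 and 13.8 TPM in KO and to 22.7, 16.1 and 16.2 TPM in WT.

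The next steps carry sugar phosphates to triose phosphates. Gpi1, glucose 6-phosphate isomerase, lay between 8.91 and 10.41 TPM in KO and between 10.20 and 13.53 TPM in WT. Phosphofructokinase, the committed step, was mostly Pfkp, which took 74.0% ± 3.58 of the family TPM in KO and 71.5% ± 3.71 in WT (SD, n = 3 each). Pfkp itself held 8.90, 9.01 and 6.84 TPM in KO and 5.73, 8.27 and 5.39 TPM in WT. Pfkl, the liver form, stayed between 1.27 and 1.39 TPM in KO and between 1.04 and 1.76 TPM in WT, and Pfkm, the muscle form, between 1.28 and 1.84 TPM and between 0.90 and 1.58 TPM. Pfkfb3, which makes the phosphofructokinase activator fructose 2,6-bisphosphate, was highest in KO library 2 at 3.43 TPM and lay between 1.87 and 2.23 TPM in the other 5 libraries.

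Aldoa, the aldolase that splits fructose 1,6-bisphosphate, was the one tested gene with every KO library above every WT library. It held 42.68, 42.14 and 40.46 TPM in KO libraries, against 31.29, 39.85 and 33.00 TPM in WT libraries. The KO values were close together and WT library 2 came within 1 TPM of them. The log2 difference was 0.27 (SE 0.14, unadjusted p = 0.0923, adjusted p = 0.546 by limma), and under median-of-ratios scaling it was 0.12 with overlapping groups. GENCODE vM21 lists protein-coding entries of 2911 and of 799 exonic bases under the symbol Aldoa. Which of them the deposited value covers is not stated. Aldoc, the brain aldolase, had no TPM in WT libraries and 0.02 TPM or less in KO libraries.

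In TPM as deposited, the libraries of the groups overlapped in the enzymes that handle triose phosphates. Gapdh, the most abundant transcript of the set, lay between 80.05 and 97.78 TPM in KO and between 81.93 and 93.74 TPM in WT, so the groups overlapped. Tpi1, triose phosphate isomerase, held 3.21, 4.96 and 3.37 TPM in KO and 4.08, 5.25 and 4.74 TPM in WT. Pgk1, the first ATP-yielding enzyme, held 8.05, 7.13 and 7.36 TPM in KO and 7.99, 9.36 and 8.53 TPM in WT, where KO library 1 reached just past the lowest WT library. These genes have many processed copies in the mouse genome, which makes their levels uncertain.

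Pgam1, the widely expressed phosphoglycerate mutase, lay between 6.50 and 9.86 TPM in KO and between 6.21 and 8.93 TPM in WT. The muscle form Pgam2 was at 0.39, 1.75 and 0.56 TPM in KO and at 0.42, 0.61 and 0.61 TPM in WT, so KO library 2 alone passed 1 TPM. Eno3, the muscle enolase, was also highest in KO library 2, with 1.34, 2.10 and 1.44 TPM in KO against 1.02, 0.95 and 1.42 TPM in WT. The 13 mature fibre markers summed to 10.9, 61.4 and 54.5 TPM in KO libraries and to 18.1, 21.4 and 40.3 TPM in WT libraries. KO library 2 thus had the highest fibre sum, and none of the 13 was at 0 in all libraries. Of the 13, 9 were tested, all 9 higher in value in KO, as were 6959 of the 8971 genes tested. At an unadjusted p under 0.05 by limma, 0 of the 9 were called (background 7.89% higher). The part of fibre RNA in these muscle forms was not tested. Eno2, the neuronal enolase, stayed under 1 TPM in every library.

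Eno1, the main enolase, held 10.90, 8.38 and 17.55 TPM in KO libraries and 16.31, 13.25 and 16.83 TPM in WT libraries, a log2 difference of -0.36 (SE 0.24, limma adjusted p = 0.619). It was -0.14 without KO library 2 and -0.63 without KO library 3 (limma unadjusted p = 0.00972, adjusted p = 0.483). Eno1b, a near-identical copy of Eno1, was listed at 3.25, 2.33 and 0 TPM in KO and at 0, 3.27 and 0.19 TPM in WT. The 3 libraries with the most Eno1b were those with the least Eno1. Summing both copies, a step chosen after their values were seen, gave 14.15, 10.71 and 17.55 TPM in KO and 16.31, 16.52 and 17.02 TPM in WT, and a log2 difference of -0.24 (SE 0.18, limma adjusted p = 0.639). The SD of the sum was 3.42 TPM in KO and 0.365 TPM in WT, against 4.74 TPM in KO and 1.93 TPM in WT for Eno1 alone.

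Pkm, pyruvate kinase, was close between the groups, at 34.01, 34.70 and 31.39 TPM in KO and 31.13, 34.51 and 32.65 TPM in WT. Ldha, the lactate dehydrogenase subunit that dominates in glycolytic cells, held 15.68, 15.69 and 15.52 TPM in KO libraries, against 16.37, 18.79 and 16.98 TPM in WT libraries. Every KO library was below every WT library, by a narrow margin, and the log2 difference was -0.14 (SE 0.12, unadjusted p = 0.282, adjusted p = 0.691 by limma). Ldhb, the form that dominates in oxidative tissue, lay between 1.20 and 2.30 TPM in KO and between 1.36 and 2.03 TPM in WT. The Ldha share of both was 89.5% ± 3.02 in KO and 90.7% ± 1.41 in WT (SD, n = 3 each; exact two-sided permutation p = 0.6, adjusted p = 0.75 over 10 families).

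The sequences before the starts of Hk1, Aldoa and Ldha, the tested genes whose libraries did not overlap, and of Hk2 are printed from RefSeq (GRCm38.p6), 5′ to 3′ on the gene's strand and up to the annotated start or the nearest annotated exon. Where several starts are listed, the one with the most CpG is shown. Capitals mark ACGTG on either strand, the core letters of a hypoxia response element; CACGTG holds it on both strands. The stretches are chr10:62340543-62340671 (minus) for Hk1, chr6:82774455-82774704 (minus) for Hk2, chr7:126799255-126799504 (minus) for Aldoa and chr7:46845554-46845803 (plus) for Ldha.
Hk1: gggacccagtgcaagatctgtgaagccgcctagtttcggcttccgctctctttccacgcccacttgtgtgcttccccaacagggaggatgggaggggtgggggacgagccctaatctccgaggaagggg
Hk2: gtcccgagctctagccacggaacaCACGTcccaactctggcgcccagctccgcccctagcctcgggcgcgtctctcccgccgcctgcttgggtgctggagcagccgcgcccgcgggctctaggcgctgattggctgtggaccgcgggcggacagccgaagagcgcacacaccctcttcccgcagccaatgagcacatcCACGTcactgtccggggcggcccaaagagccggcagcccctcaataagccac
Aldoa: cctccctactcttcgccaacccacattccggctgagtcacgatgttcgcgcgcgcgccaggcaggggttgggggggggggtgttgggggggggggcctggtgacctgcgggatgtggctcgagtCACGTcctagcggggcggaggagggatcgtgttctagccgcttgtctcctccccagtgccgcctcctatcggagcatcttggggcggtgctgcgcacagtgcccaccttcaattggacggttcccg
Ldha: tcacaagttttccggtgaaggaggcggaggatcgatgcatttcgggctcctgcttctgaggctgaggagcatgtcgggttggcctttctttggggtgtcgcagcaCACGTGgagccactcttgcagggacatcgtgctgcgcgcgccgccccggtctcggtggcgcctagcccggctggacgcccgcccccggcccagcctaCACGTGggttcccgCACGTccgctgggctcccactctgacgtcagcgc

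These letters differed between the genes: the Hk1 stretch, cut short by an exon, holds none of them, and the Hk2 stretch does. Of 33 pathway genes with a listed start, 14 held ACGTG in the 250 bases before it, or 42.4%, against 18.5% of 27025 genes in the table and 26.1% of the 6771 of them that were tested here. Aldoa and Ldha, with differences of opposite sign, both held it. CACGTG alone was found in 5 of 33, or 15.2%, against 6.86% of all genes and 10.4% of those tested. GGGCGG, the GC box, was found in 21, or 63.6%, against 35.4% of all genes and 65.7% of those tested. A full estrogen response element, GGTCA and TGACC with 3 bases between, was found in 0 of 33. It was found in 18 of the 27025 and in 0 of the 6771 tested, so its absence is not particular to the pathway genes. These matches describe letters, on either strand, and genes with more listed starts have more bases searched.

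Pdk4, the kinase induced by fasting and fat use, was by far the main kinase transcript, at 10.83, 10.05 and 7.25 TPM in KO libraries and 11.52, 20.24 and 10.57 TPM in WT libraries. KO library 1 lay just above WT library 3, so the groups overlapped. The log2 difference was -0.50 (SE 0.25, unadjusted p = 0.0756, adjusted p = 0.517 by limma). Without WT library 2, which stood far above the rest, it was -0.23 (unadjusted p = 0.248).

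The minor kinases lay under the level needed for a test. Pdk3 was at 0.62, 0.48 and 0.61 TPM in KO and at 0.35, 0.41 and 0.31 TPM in WT, with every KO library above every WT library. Pdk1, a target of hypoxia signalling, was at 0.38, 0.62 and 0.49 TPM in KO and 0.34, 0.49 and 0.36 TPM in WT. Pdk2 lay between 0.66 and 1.60 TPM in KO and between 0.54 and 0.96 TPM in WT. As a share of all 4 kinases, Pdk4 took 86.7%, 78.8% and 79.1% in KO libraries and 90.4%, 91.8% and 86.6% in WT libraries. The Pdk1 share was 4.42% ± 1.22 in KO and 2.61% ± 0.367 in WT, without overlap (SD, n = 3 each; exact two-sided permutation p = 0.1, adjusted p = 0.5 over 10 families).

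Pdha1 and Pdhb encode different subunits of the first enzyme of the complex and are not isoforms of each other. Pdha1 held 6.69, 8.66 and 7.30 TPM in KO and 5.76, 6.94 and 6.14 TPM in WT, and Pdhb between 6.20 and 6.92 TPM in KO and between 5.97 and 7.52 TPM in WT. The Pdha1 share of both was 51.9%, 55.6% and 51.9% in KO libraries and 47.4%, 48.0% and 50.7% in WT libraries. Every KO share lay above every WT share (exact two-sided permutation p = 0.1, adjusted p = 0.5 over 10 families). Exons of Map3k15 on the opposite strand overlap 16.1% of the exonic bases of Pdha1, and without strand such reads cannot be told apart. Dlat, the second enzyme, was at 1.64 ± 0.28 TPM in KO and 1.26 ± 0.229 TPM in WT, and Dld, the third, at 7.33 ± 0.206 and 7.14 ± 0.219 TPM (SD, n = 3 each).

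The phosphatases that reactivate the complex, outside the 35 genes, stood apart in opposite directions. Pdp2 held 0.55, 0.90 and 0.48 TPM in KO libraries, against 1.98, 2.10 and 2.97 TPM in WT libraries. Mean Pdp2 in KO came to 27.4% of that in WT, and the log2 difference was -1.02 (SE 0.16, adjusted p = 0.0953 by limma), which misses the threshold. Pdp2 reached 1 TPM in WT libraries alone. It thus entered the test only through the group where it was higher, which limits what its p-values can show. Pdp1 held 6.36, 4.16 and 4.79 TPM in KO libraries, against 3.10, 3.94 and 2.75 TPM in WT libraries, with a log2 difference of 0.51 (SE 0.17, unadjusted p = 0.0168, adjusted p = 0.325 by limma). In both genes the libraries of the groups did not overlap, where 13.5% of all genes tested lay wholly higher and 3.07% wholly lower.

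Their sum did not separate the groups, at 5.75 ± 1.01 TPM in KO and 5.61 ± 0.489 TPM in WT (SD, n = 3 each). Pdp2 took 7.96%, 17.8% and 9.11% of it in KO libraries and 39.0%, 34.8% and 51.9% in WT libraries. Such a share does not move with library scaling. With Pdp2 wholly lower and Pdp1 wholly higher in KO, a share without overlap follows from those values and is no separate result. The pair was not among the 10 families whose shares were tested. Pdp2 lies on chromosome 8 at 104591451 to 104599026 (GENCODE vM21 on GRCm38, plus strand), Pdp1 on chromosome 4 at 11958184 to 11966452 (minus strand), and no exon of another annotated gene overlaps either. Pdp2 passed the adjusted threshold by limma in 3 of 16 other settings: with robust eBayes (adjusted p = 0.0154), with estimated library weights (0.0413) and with protein-coding genes rescaled (0.0361). The estimated weights were 4.097, 0.4097 and 0.8195 for WT libraries 1, 2 and 3, so WT library 1 dominated its group in that setting. In KO they were 0.6027, 0.789 and 1.529. Over all settings the adjusted p of Pdp2 ran between 0.0154 and 0.366, the highest with no filter.

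**Figure D3:**
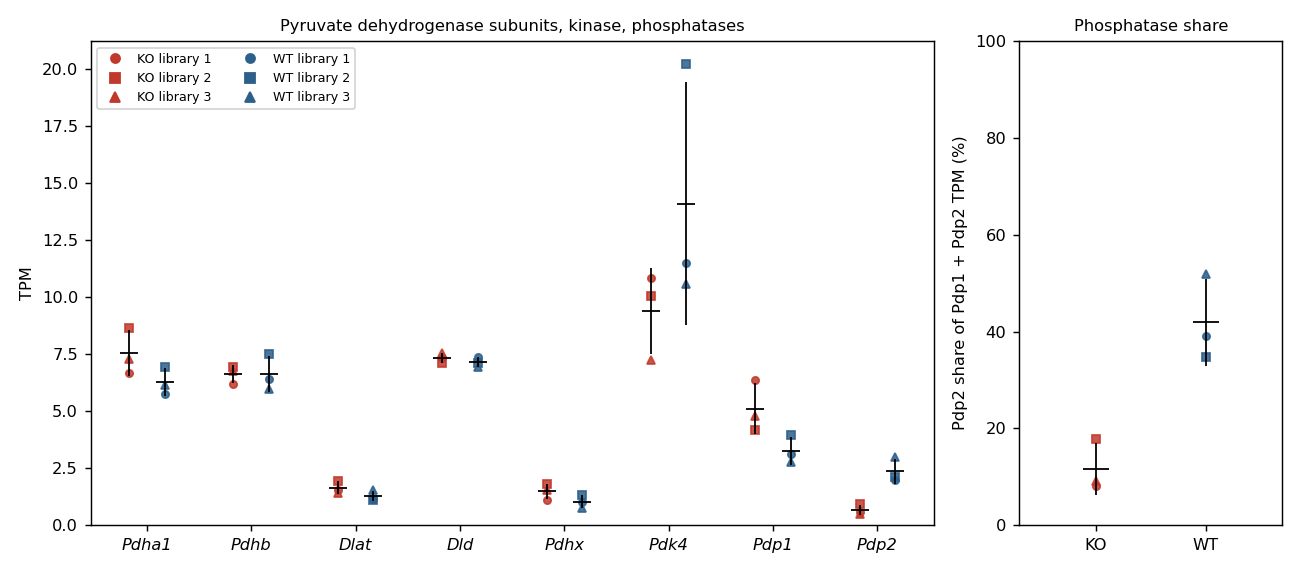
Left, TPM of pyruvate dehydrogenase subunits (Pdha1, Pdhb, Dlat, Dld, Pdhx), the kinase Pdk4 and the phosphatases Pdp1 and Pdp2, with KO libraries left of WT libraries and bars for the mean and SD. Right, the Pdp2 share of Pdp1 plus Pdp2, where the KO libraries lie at 17.8% or less and the WT libraries at 34.8% or more.

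**Figure D4:**
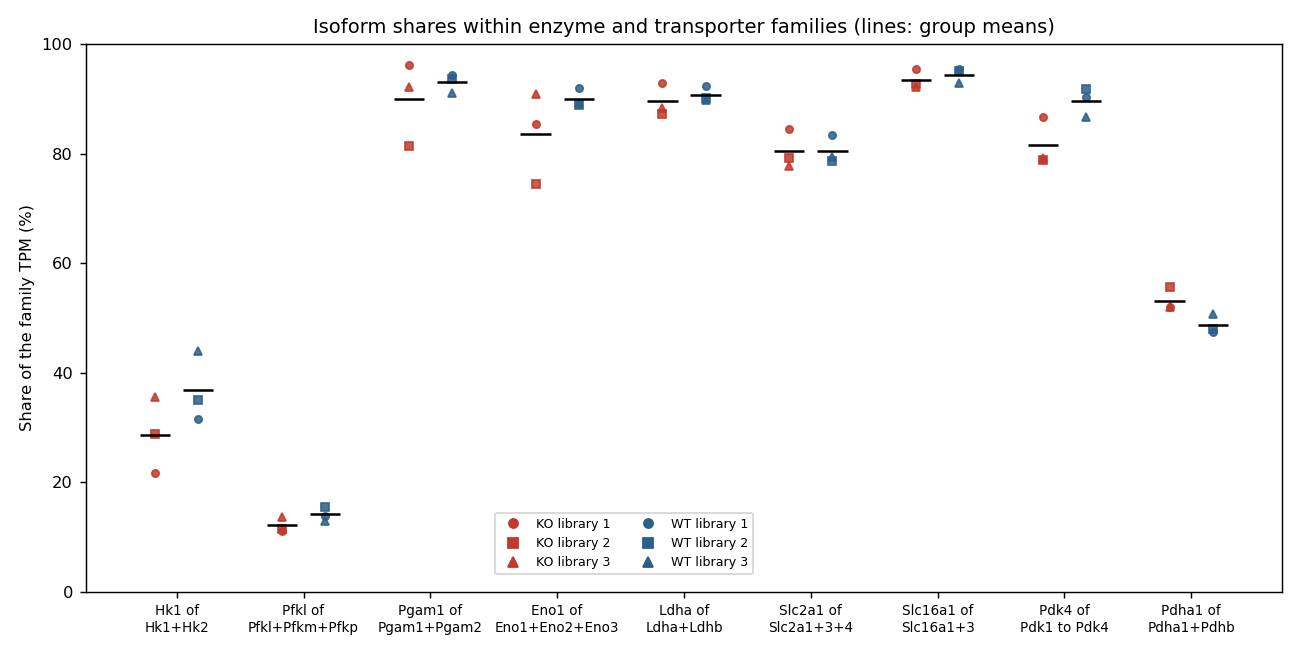
Share of 1 gene in the summed TPM of its family, in percent, for 9 families. KO libraries are left of WT libraries, with lines at the group means. The families are isoforms, except that Pdha1 and Pdhb encode different subunits of the same enzyme. The Pdha1 share lies between 51.9% and 55.6% in KO and between 47.4% and 50.7% in WT; the libraries overlap in the other 8 shares drawn, of which Pdk4 stands for the kinases, whose Pdk1 and Pdk3 shares, not drawn, do not overlap.

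The pentose phosphate genes were low and none separated the groups. G6pdx, the NADPH-making entry enzyme, lay between 0.95 and 1.06 TPM in KO and between 0.86 and 1.70 TPM in WT. Pgd, the next NADPH-making dehydrogenase, held 3.52, 2.30 and 1.96 TPM in KO and 2.48, 4.05 and 1.62 TPM in WT. Taldo1, transaldolase, was the highest of them, at 5.14, 5.14 and 6.20 TPM in KO and 5.17, 4.50 and 4.43 TPM in WT (log2 difference 0.19, SE 0.13, limma adjusted p = 0.630). Tkt, transketolase, was not tested and held 0.64, 0.74 and 0.66 TPM in KO and 0.74, 1.46 and 1.17 TPM in WT, with KO library 2 level with WT library 1.

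Genes around these steps were read from 5 further lists of 91 genes, of which 43 were tested. Adjusted over all genes, 0 passed by limma; at an unadjusted p under 0.05, 3 were higher and 3 lower, where the shares over all genes were 7.89% higher and 2.66% lower. Their median log2 difference was 0.09. Besides Pdp1 and Pdp2 the 6 genes at an unadjusted p under 0.05 were Rpia, Mpc2, Prps1 and Emb. Rpia, which makes ribose 5-phosphate, held 2.40, 2.81 and 2.77 TPM in KO and 2.05, 1.78 and 1.74 TPM in WT (log2 difference 0.36, limma adjusted p = 0.318). Prps1, which turns ribose 5-phosphate into the precursor of nucleotides, held 4.48, 3.64 and 3.58 TPM in KO and 6.70, 5.62 and 4.66 TPM in WT (log2 difference -0.44, limma adjusted p = 0.349).

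In these neighbours of the pentose pathway the libraries did not overlap, with Rpia higher and Prps1 lower in KO. Of the 43 tested genes of the 5 lists, 3 lay wholly higher (background 13.5%) and 4 wholly lower (background 3.07%). Mpc2, a subunit of the mitochondrial pyruvate carrier, held 6.16, 7.53 and 7.77 TPM in KO and 4.60, 4.49 and 6.67 TPM in WT (log2 difference 0.39, limma adjusted p = 0.457). The lowest KO library lay below the highest WT library. Its partner Mpc1 lay between 4.96 and 7.35 TPM in KO and between 5.34 and 5.68 TPM in WT. Emb, embigin, a chaperone of monocarboxylate transporters, held 2.04, 1.64 and 1.16 TPM in KO and 2.16, 2.64 and 2.46 TPM in WT (log2 difference -0.40, limma adjusted p = 0.391). Cell cycle markers summed to 28.1, 19.2 and 53.2 TPM in KO libraries and 11.2, 14.5 and 15.9 TPM in WT libraries. Of the 10 markers, 7 were tested, and none was at 0 in all libraries. All 7 were higher in value in KO, as were 6959 of the 8971 genes tested. At an unadjusted p under 0.05 by limma 6 of the 7 were higher (background 7.89%). Every KO library lay above every WT library in 4 of the 7 (background 13.5%). The part of these markers in the differences above was not tested.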

How the data were processed

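The authors deposited TPM per gene symbol for 6 libraries, 3 KO and 3 WT. Tools named, per the submitters' processing notes, are kallisto, Trimmomatic 0.33, CASAVA and FastQC; mm10 and GRCm38 are the builds, and their roles are not stated. How transcripts were summed per gene, the strandedness and the annotation are not given in the sources used here. Without strand, reads of overlapping genes on opposite strands cannot be told apart. Besides Pdha1, exons of other genes overlap the exonic bases of G6pdx (13.6%) and Gpi1 (11.5%) on the opposite strand. On the same strand they overlap those of Pkm (15.3%) and Pfkm (10.2%). Listed TPM do not fill the full TPM scale in any library, so a change in the remainder moves all listed values of a library together.

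Columns were matched to samples by the number in their names and titles. A gene was tested if 3 or more libraries reached 1 TPM. log2(TPM + 1) was fitted with limma 3.58.1 in R 4.3.3 (eBayes with a trend, two-sided, Benjamini-Hochberg over 8971 genes). Fold changes on this scale understate those of low genes. Isoform shares were tested with exact two-sided permutation in SciPy 1.17.1. The fit was also run on simulated data with independent noise per gene and larger differences than those of the pathway genes. That run does not bear on differences of their size. The genes and lists were chosen with earlier results of these data known. All 35 genes are given with TPM; log2 differences are printed for those whose libraries do not overlap, for the smallest p of each of 5 roles, and for the other lists' genes at an unadjusted p under 0.05, or their smallest p. Eno1 and Pfkp fall outside that rule. Coordinates are those of GENCODE vM21, and 1-based. Other settings were pseudocounts of 0.1 and 5, filters, scalings, variance models, library weights and leaving out each library.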

Additional observations from a re-analysis of the deposited data

How the results depend on the processing

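In all 16 other settings, 0 pathway genes passed the adjusted threshold by limma. The count at an unadjusted p under 0.05 depended on the scaling: 6 lower with median-of-ratios scaling, 6 lower with quantile normalization, 3 higher and 2 lower with protein-coding genes rescaled, 5 higher with estimated library weights (19.2%, against 23.2% of all genes) and 1 higher with no filter (2.86%, against 5.84%), against 0 higher and 1 lower as reported. Genes whose libraries did not overlap numbered 0 higher and 7 lower with either median-of-ratios scaling or quantile normalization, 4 higher and 1 lower with protein-coding genes rescaled, and 2 higher with no filter (5.71%, against 9.13% of all genes), against 1 higher and 2 lower as reported. Leaving out 1 library at a time gave 0 to 2 genes higher and 1 to 2 lower at an unadjusted p under 0.05 by limma. Over all genes, 4.88% to 13.4% were then higher and 2.2% to 2.73% lower. Without overlap, 1 to 4 genes lay higher and 2 to 5 lower, where fewer libraries also make an overlap rarer. Over all genes, 15.8% to 36.8% were then higher and 3.77% to 6.16% lower without overlap. Without WT library 2, 2 genes, or 7.69%, were higher at an unadjusted p under 0.05, against 13.4% of all genes. Without KO library 2, KO library 3 or WT library 3, 2 genes, or 7.69%, were lower. The shares over all genes were there 2.73%, 2.26% and 2.54% lower.

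Of the log2 differences recomputed, which leave out Pgls and Pfkp, those of Slc16a1 and Slc2a3 changed sign. Slc16a1 stood at -0.03 under quantile normalization and between -0.09 and 0.37 when 1 library was left out, and Slc2a3 at 0.14 with estimated library weights and between -0.23 and 0.07 when 1 library was left out. Among the isoform shares, the Pgam1 difference ran between -6.28 and 1.11 percentage points and the Slc2a1 difference between -2.0 and 1.43, each with 1 library left out. The cause was not tested. No paired analysis was possible because the titles number all 6 libraries differently. The unknown depth limits genes near 1 TPM, where the pseudocount moves the Pdp2 difference between -1.74 (0.1) and -0.38 (5).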

Other observations

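The regulators of glucose use, among the 5 lists of 91 genes, held 22 genes of which 16 were tested. By limma, 0 were at an adjusted p under 0.05 and 0 at an unadjusted p under 0.05 (background 7.89% higher and 2.66% lower). Their median log2 difference was 0.12, equal to that of all genes tested, with 13 higher and 3 lower values in KO. Tfam, the mitochondrial transcription factor that maintains mitochondrial DNA, had the smallest p, at 3.63, 3.82 and 3.55 TPM in KO libraries and 2.74, 3.12 and 3.14 TPM in WT libraries (log2 difference 0.22, limma adjusted p = 0.532). Tfam was the 1 gene of the 16 with every KO library above every WT library (background 13.5%), and 0 lay wholly below (background 3.07%). Hif1a, the hypoxia-inducible factor that drives glycolytic genes, lay between 8.35 and 8.90 TPM in KO and between 7.99 and 10.27 TPM in WT. Myc, another activator of glycolytic genes, was abundant and varied within both groups, at 142.04, 110.92 and 93.64 TPM in KO and 94.91, 124.16 and 71.24 TPM in WT. Txnip, a glucose-induced inhibitor of glucose uptake, lay between 8.38 and 20.56 TPM in KO and between 9.25 and 17.66 TPM in WT.

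Bpgm, which makes the haemoglobin ligand 2,3-bisphosphoglycerate and is abundant in red cells, held 2.46, 2.34 and 1.44 TPM in KO libraries and 1.67, 1.30 and 1.10 TPM in WT libraries (log2 difference 0.38, limma adjusted p = 0.480). The 5 erythroid markers, all tested, summed to 419, 437 and 38.4 TPM in KO libraries and to 215, 43.6 and 18.2 TPM in WT libraries. The 3 libraries with the most Bpgm were the 3 with the highest erythroid sums, and the part of red cell RNA in the difference was not tested. No erythroid marker was at 0 in all libraries. At an unadjusted p under 0.05 by limma, 0 of the 5 were called (background 7.89% higher and 2.66% lower).

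Pgls, the lactonase of the pentose phosphate pathway, named after its values were seen, was at 1.44, 1.45 and 1.49 TPM in KO and 1.58, 2.20 and 2.09 TPM in WT (log2 difference -0.26, limma adjusted p = 0.516). Exons of Fam129c on the same strand overlap 20.6% of its exonic bases, so reads of both cannot be separated there.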
